A study of Canis lupus familiaris with 33 samples.

Results

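The type I keratins KRT10, KRT13, KRT14, KRT15, KRT16, KRT17, KRT19, KRT20 and KRT23 were followed in RNA-seq of canine bladder. They were taken by gene symbol from a TMM-normalized table. The copy of the table read here stops partway through a line and is incomplete, so genes after that point were not analysed here, and counts over all genes are over the 25096 genes read. Of the 9 keratins, 8 are among them and KRT16 was not analysed here. The tumors were 29 high grade invasive urothelial carcinomas (iUC), the invasive cancer of the bladder lining, each taken by cystoscopic biopsy from a different pet dog that had not been treated. The comparison group was 4 samples labelled as normal mucosa and as normal urothelial cells, named A, B, C and D, dissected from the bladder mucosa of dogs euthanized for reasons unrelated to the bladder. Dogs of any age, sex and breed entered the tumor group, the design holds no genetic alteration and no agent, and all libraries were sequenced in a single batch. Values are log2 normalized expression with the gene's median over the 33 samples set to 0, so that 0 is the median sample, and values compare samples within a gene but not one gene with another.

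Keratins are the intermediate filament proteins of epithelial cells. A filament is built from a type I (acidic) and a type II (basic) keratin, and the partners change as cells mature. In stratified epithelia, KRT14 and KRT15 belong to the basal layer, KRT17 is induced in activated and injured epithelium, KRT13 belongs to the upper layers of non-cornifying epithelium, and KRT10 to the upper layers of cornifying epidermis. KRT19, KRT20 and KRT23 are keratins of simple and glandular epithelia, and KRT20 is the keratin of the umbrella cells that face the urine. In bladder cancer, KRT14 is used as a marker of basal and KRT20 of luminal differentiation.

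All 9 genes lie in the type I keratin cluster on chromosome 9 of the dog, by the RefSeq gene table of the assembly UU_Cfam_GSD_1.0, which is a later assembly than the one the reads were aligned to and is used here for gene order only. Counting protein-coding genes after KRT17, KRT14 is at position 2, KRT19 at 4, KRT15 at 5 and KRT13 at 6, while KRT23, KRT20 and KRT10 stand further along at 55, 56 and 58. The 26 type II keratins looked up are not among the genes read from the incomplete copy, so the filament partners were not analysed here. KRT14, KRT16 and KRT17 are close copies of one another, and how reads fitting more than one of them were assigned is not given in the sources used here, so the split between KRT14 and KRT17 is uncertain.

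The normal samples differed from the tumors in more than the keratins. The mean of 7 smooth muscle genes was 4.92 to 6.97 in the normals and -1.03 to 3.69 in the tumors, and all 7 were called lower in tumors, beside 45.8% of all genes tested. The mean of 11 general epithelial genes was -1.81 to -0.69 in the normals and -0.35 to 0.51 in the tumors, and 10 of the 11 were called higher in tumors, beside 10.7% of all genes tested. These values go against a label of urothelial cells alone, and the 4 samples are called normals below. Olfactory receptor genes, which bladder is not expected to use, were above their lowest value at 99.3% to 99.8% of 456 genes in the normals and at 3.95% to 91.7% in the tumors (median 18.9%), and 461 of 465 tested were called lower, against the same 45.8%. The filter needed only 4 samples above the lowest value, which the 4 normals alone can meet. For a gene seen only in them, a call lower follows from the filter, which bears on both the 461 and the 45.8%. The smooth muscle, epithelial and olfactory values move with every comparison of normals and tumors below. Their part in it cannot be told apart from the group. Fits with the olfactory share and values relative to general epithelium are given below with that limit. In bulk RNA, fewer cells of a type and less RNA per cell cannot be told apart.

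Of the 8 measured type I keratins, KRT19 rose and KRT20 fell in tumors, and 6 did not pass. The test was limma on the log2 values with Benjamini-Hochberg adjustment over 24471 genes, and a call needed an adjusted p of at most 0.05 and at least a 2-fold change. Over all genes tested, 10.7% were called higher (2615 genes) and 45.8% lower (11206 genes), against 1 of 8 keratins in each direction. The median log2 fold change was -0.02 over the 8 keratins and -0.84 over all genes tested. In the table the authors normalized by DESeq, where 5.62% of 24517 genes were called higher and 49.1% lower, 0 keratins were called higher and 2 lower (KRT10 and KRT20).

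**Figure D1:**
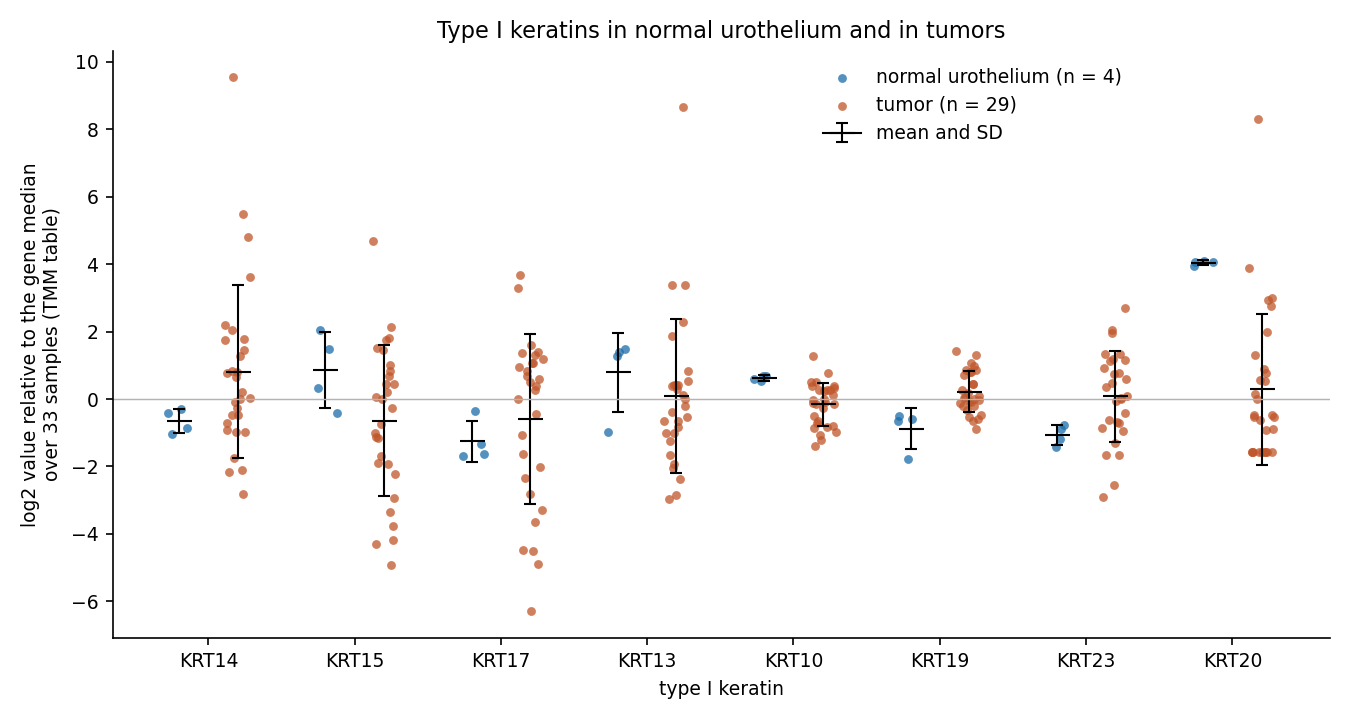
Each point is one sample, with the log2 value relative to the gene median on the vertical axis and the 8 measured type I keratins along the horizontal axis; blue points are the 4 normals, orange points the 29 tumors, and bars give the mean and SD. The normals of KRT20 sit together near 4, above all tumors but 1, and for each keratin but KRT19 the tumors spread wider than the normals.

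Of the keratins of simple epithelium, KRT19, which is expressed through all layers of urothelium, had values of -0.58, -0.64, -0.50 and -1.79 in normals A, B, C and D. In tumors it ran from -0.88 through a median of 0.07 to 1.41, and 25 of 29 tumors lay above every normal. The groups overlapped in the other 4 tumors, and normal D lay well below the other normals. The log2 fold change was 1.09 (standard error 0.32, limma adjusted p = 0.00313), or 2.13-fold. Without normal D it was 0.79 (limma adjusted p = 0.0502), which is not a call, and in the DESeq-normalized table it was 0.79 (limma adjusted p = 0.0278), under 2-fold. With the olfactory receptor share in the fit it was 0.92 (limma adjusted p = 0.118), but the share and the group cannot be told apart in this fit.

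KRT20 was at 4.05, 4.06, 4.11 and 3.95 in normals A to D. The tumors ran from -1.57 through a median of -0.47 to 8.32, and 28 of 29 lay below every normal, with tumor 5 above them. The groups were thus apart except for that tumor. The log2 fold change was -3.75 (standard error 1.09, limma adjusted p = 0.00288), 13.4-fold lower in tumors.

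KRT20 is the one member with a lowest value that several samples share, and 9 tumors were at it. Measured from this lowest value, the normals stood 5.52 to 5.68 higher on the log2 scale, the median tumor 1.10 and tumor 5 9.89. After tumor 5, the highest tumors were Mis at 3.90, 11 at 3.01, 2_699898 at 2.93 and Po at 2.76. Tumors therefore ranged from the lowest value to far above the normals.

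When the olfactory receptor share was added to the fit, the log2 fold change of KRT20 was 0.52 (limma adjusted p = 0.767), the opposite sign. That share was nearly complete in all 4 normals and rarely high in tumors, so the share and the group cannot be told apart in this fit. Over the 29 tumors alone, KRT20 had a Pearson's r with the share of 0.60 (permutation p = 0.00244, or 0.0976 after adjustment over 40 relations) and, by ranks, a rho of 0.39 (permutation p = 0.0351, or 0.505 after adjustment). Leaving out the 2 tumors with the most distant share, r was 0.22, so the relation rests on those tumors.

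KRT20 moved in the same direction as type I keratins outside the set. These are mostly keratins of hair and of the inner root sheath, with KRT9 of the palm and sole, KRT12 of the cornea and KRT24 among them. Of the 13 among the genes read, 12 were called lower in tumors and 0 higher, with a median log2 fold change of -4.43, beside 45.8% of all genes tested called lower and 461 of 465 olfactory receptor genes, whose median was -5.39. The 4 normals alone can carry a gene through the filter, so calls lower in these groups of genes can follow from the filter. KRT9 (-6.16, standard error 0.73, limma adjusted p = 3.79e-09) and KRT24 (-5.93, standard error 0.54, limma adjusted p = 6.61e-12) fell most, and for each of them all 29 tumors lay below every normal. KRT9 was at its lowest value in 10 tumors and KRT24 in 17, so both falls are measured partly from that value.

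KRT23, found in simple epithelia and in some carcinomas, was at -0.90, -1.17, -0.76 and -1.41 in the normals. In tumors it ran from -2.89 through a median of 0.10 to 2.71. In 22 tumors it was above every normal and in 4 below, so the normals fell inside the tumor range. Its change of 1.15 on the log2 scale (standard error 0.66, limma adjusted p = 0.12) did not pass.

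Of the keratins of the upper layers, KRT10 was at 0.68, 0.58, 0.69 and 0.52 in the normals. The tumors ran from -1.40 through a median of -0.09 to 1.28, with 27 tumors below every normal and tumors 9 and 10 above. No tumor fell within the narrow range of the normals. The log2 fold change was -0.78 (standard error 0.32, limma adjusted p = 0.0322), which is under 2-fold and therefore not a call, and with each normal left out it was -0.81 to -0.75, with an adjusted p of 0.0576 to 0.0748. With the olfactory receptor share in the fit it was -0.25 (limma adjusted p = 0.685), but the share and the group cannot be told apart in this fit. In the DESeq-normalized table it was -1.07 (standard error 0.33, limma adjusted p = 0.00439), which is a call; among genes with a median above their lowest value, the fold changes of that table sit 0.28 lower than those of the TMM-normalized one.

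KRT13, the keratin of non-cornifying upper layers, was at -0.97 in normal A and at 1.27, 1.40 and 1.48 in normals B, C and D. The tumors ran from -2.98 through a median of -0.19 to 8.65 in tumor Da6, far above Po, the next tumor, at 3.40. The groups overlapped, with 15 tumors inside the range of the normals. The log2 fold change of -0.70 (standard error 1.13, limma adjusted p = 0.586) did not pass.

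Of the basal keratins, KRT14 was at -0.43, -1.04, -0.86 and -0.30 in the normals, and in tumors it ran from -2.83 through a median of 0.22 to 9.54. Tumor Da6 was again the highest, followed by tumor 7 at 5.49, JE at 4.82 and Ab at 3.62. In 19 tumors KRT14 lay above every normal and in 4 below, so the groups overlapped. For KRT14 a log2 fold change of 1.47 (standard error 1.25, limma adjusted p = 0.295) did not pass.

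KRT15, a keratin of basal cells and of hair follicle stem cells, was at -0.42, 0.33, 1.49 and 2.04 in normals A to D. The tumors ran from -4.93 through a median of -0.27 to 4.69. Of the tumors, 14 lay below every normal, 13 among the normals and 2 above. For KRT15 the fold change of -1.50 in log2 (standard error 1.12, limma adjusted p = 0.23) did not pass.

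KRT17, the keratin of activated epithelium, was at -1.33, -1.69, -1.63 and -0.37 in the normals. The tumors ran from -6.29 through a median of 0.40 to 3.69, with 17 above every normal and 9 below. Only 3 tumors fell among the normals, and the tumors lay on both sides of them. The difference of 0.66 in log2 (standard error 1.24, limma adjusted p = 0.642) did not pass.

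**Figure D2:**
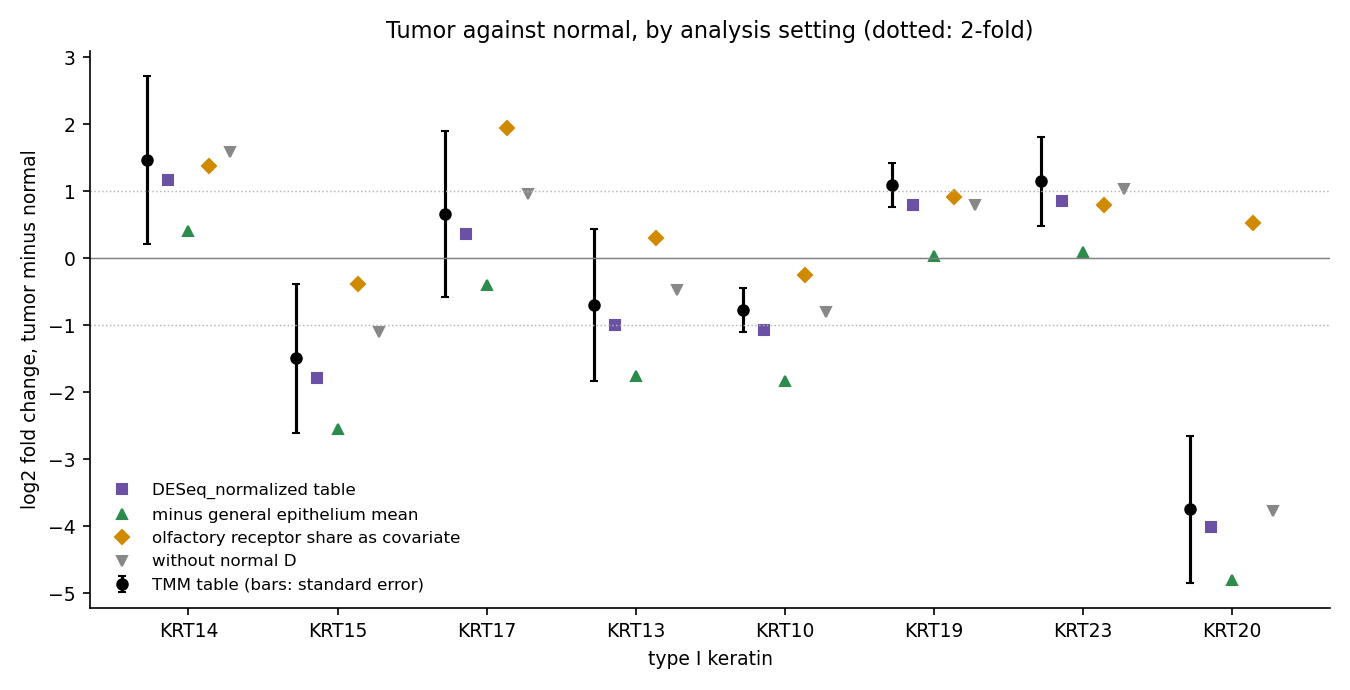
The vertical axis gives the log2 fold change of tumors minus normals for each of the 8 type I keratins on the horizontal axis; symbols stand for the TMM-normalized table with its standard error, the DESeq-normalized table, values minus the general epithelium mean, a fit with the olfactory receptor share as covariate, and a fit without normal D. KRT19 sits at 1.09 in the TMM-normalized table and at 0.03 against general epithelium, and KRT20 sits at -3.75 and moves to 0.52 with the covariate. The 0.03 rests on PRSS8, 1 of the 11 general epithelial genes, without which the difference was -0.67 (not plotted).

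Because general epithelial genes were themselves higher in tumors, each keratin was also set against them. The mean of the 11 general epithelial genes, which hold junction proteins, transcription factors and membrane proteases that epithelial cells share, was subtracted in each sample. In normals KRT19 was then 0.09 ± 0.07 (SD, n = 4), and in tumors it was 0.12 ± 0.56 (SD, n = 29), a difference of 0.03 (two-sided exact permutation p = 0.914). On this scale the groups of KRT19 differed by far less than the spread between tumors, but this rests on PRSS8, 1 of the 11 genes: without it the difference was -0.67 (exact permutation p = 0.0234).

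KRT10 fell on this scale, from 1.59 ± 0.50 (SD, n = 4) in normals to -0.24 ± 0.74 (SD, n = 29) in tumors, a difference of -1.84 (exact permutation p = 2.44e-05, the smallest that 4 against 29 samples allow). KRT20 fell by 4.81 on the log2 scale (exact permutation p = 0.000953). KRT15 fell by 2.56 (exact permutation p = 0.0395). The limma fit of the same values over all genes called the same 3 keratins, with adjusted p of 6.12e-05 for KRT10, 0.000265 for KRT20 and 0.0435 for KRT15. On this scale 61.5% of the 24471 genes tested were called lower and 1.27% higher, and the median fold change of all genes sits 1.06 lower on the log2 scale (-1.90 against -0.84), so the 3 of 8 keratins called lower are a smaller share than that of all genes.

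The call of KRT15 was lost without normal C, at a difference of -2.44 (exact permutation p = 0.0861), or normal D, at -1.88 (exact permutation p = 0.172). For KRT13, KRT14, KRT17 and KRT23 the differences were -1.76, 0.41, -0.40 and 0.09, with exact permutation p of 0.152, 0.765, 0.763 and 0.896. With each normal left out, the difference of KRT14 ran from 0.18 to 0.80. These are 8 tests with p-values not adjusted for their number. One gene of the list, PRSS8, a membrane protease, was at its lowest value in all 29 tumors and high in the normals (5.92 ± 0.46, SD, n = 4); leaving it out, a choice made after seeing the data, moves every keratin down by the same amount, to -2.53 for KRT10, -5.51 for KRT20, -3.26 for KRT15 (exact permutation p = 0.00965) and -2.46 for KRT13 (exact permutation p = 0.0584).

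Among the tumors, the basal and squamous keratins and KRT20 varied more than nearly all genes. The SD over 29 tumors was 2.56 for KRT14, 2.52 for KRT17, 2.29 for KRT13, 2.25 for KRT15 and 2.24 for KRT20, each larger than that of at least 98.7% of the genes tested. KRT23 had an SD of 1.35, larger than 89.6% of genes. KRT19 and KRT10, with SDs of 0.61 and 0.64, were near the middle of all genes at 46.4% and 49.3%.

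Of the 28 pairs of keratins, 5 passed the correction by Pearson's r over the 29 tumors, all with a positive r. KRT13 and KRT14 were the closest, with an r of 0.84 (permutation p = 1e-05, the smallest the permutations can give, or 0.00028 after adjustment) and a rho of 0.79 (permutation p = 1e-05, or 0.00028 after adjustment). Among 24088 genes, KRT14 had the highest r with KRT13, and KRT13 the highest r with KRT14. Without the 2 tumors farthest from the KRT13 median (below, the 2 most distant tumors, by the first gene named of a pair, by the score, or by the keratin where other genes are set against it) r was 0.71, and without tumor Da6, a choice made after seeing the data, it was also 0.71.

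Tumor Da6 was the highest in both genes, and the next tumors were not ranked alike. JE was high in both (3.38 for KRT13 and 4.82 for KRT14), whereas tumor 7 was high in KRT14 (5.49) and near the median in KRT13 (0.52).

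KRT15 and KRT17 had an r of 0.75 (permutation p = 2e-05, or 0.00028 after adjustment) and a rho of 0.72 (permutation p = 5e-05, or 0.0007 after adjustment), with 0.65 without the 2 most distant tumors. KRT15 was the gene with the highest r with KRT17, and KRT17 ranked 9 of 24088 for KRT15. Tumor Sn was the lowest in both (-4.93 for KRT15 and -6.29 for KRT17), and tumor 2 the highest in both (4.69 and 3.69). Low values of both keratins were also seen in tumors 15, Mis and 10. Tumor 20 went against the others, with KRT15 at 2.13 and KRT17 at -4.49.

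**Figure D3:**
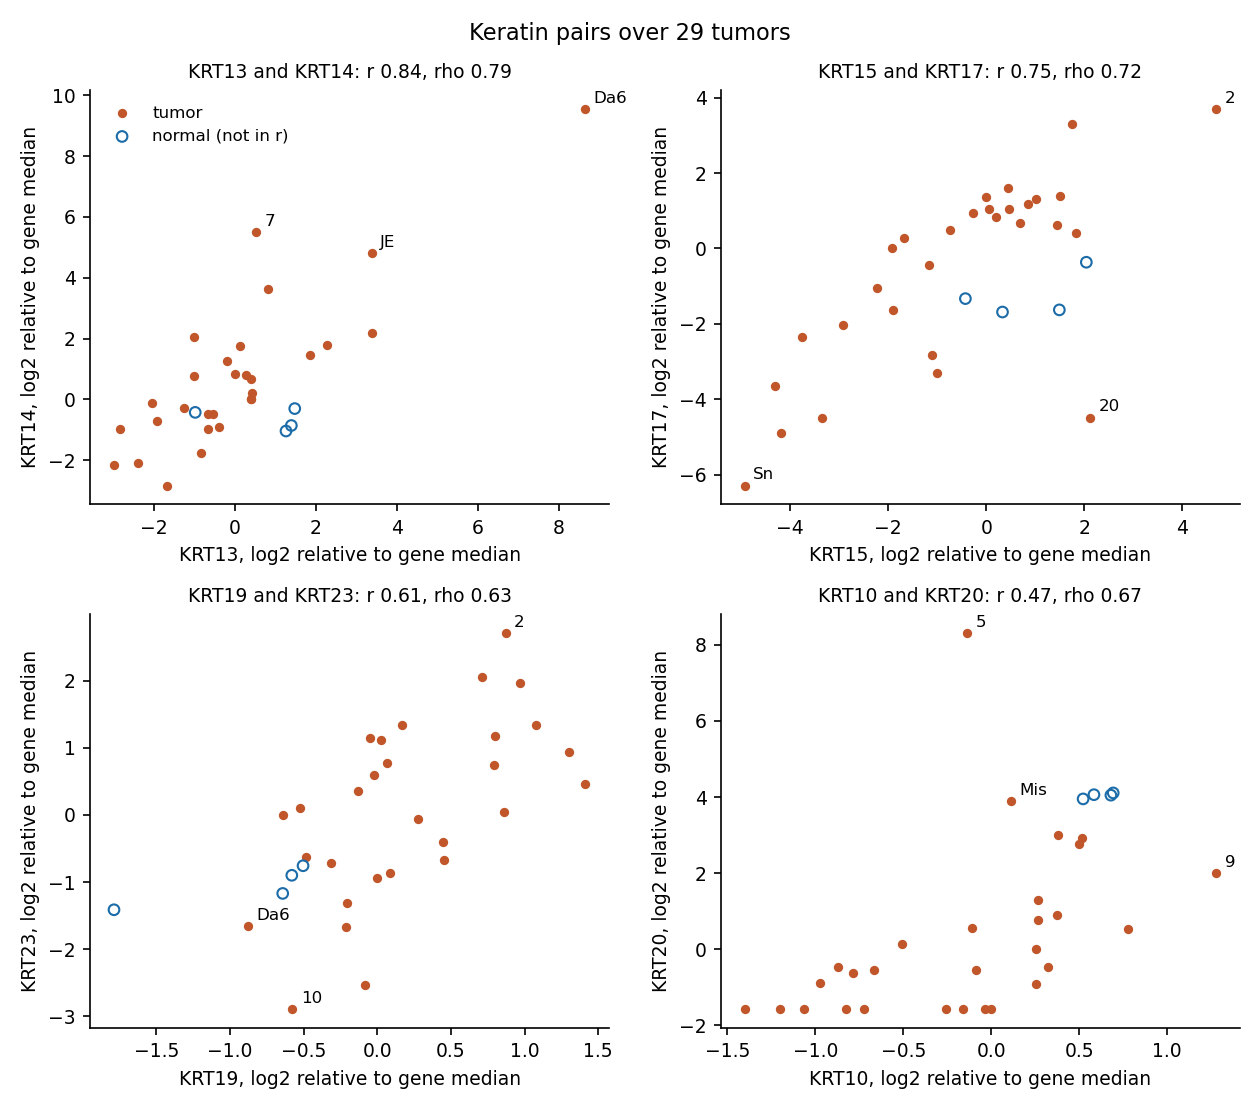
Each panel plots 2 type I keratins against each other as log2 values relative to the gene median, with one orange point per tumor (n = 29) and open blue circles for the 4 normals, which do not enter r. Tumor Da6 stands alone at 8.65 and 9.54 in the panel of KRT13 and KRT14, tumor 20 lies off the line of KRT15 and KRT17, and tumor 5 lies off that of KRT10 and KRT20.

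KRT19 and KRT23, both of simple epithelium, had an r of 0.61 (permutation p = 0.00047, or 0.00439 after adjustment) and a rho of 0.63 (permutation p = 0.0004, or 0.0028 after adjustment), and r was 0.65 without the 2 most distant tumors. Tumor 2 was the highest in KRT23 at 2.71 and was also high in KRT19 (0.87). Tumor Da6, the highest in KRT13 and KRT14, was the lowest in KRT19 at -0.88 and low in KRT23 (-1.65).

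The other pairs that passed were weaker by Pearson's r. KRT13 and KRT17 had an r of 0.51 (permutation p = 0.00392, or 0.0274 after adjustment) but a rho of 0.40 (permutation p = 0.0348, or 0.131 after adjustment), and r was 0.42 without the 2 most distant tumors and 0.45 without tumor Da6, neither past the correction. KRT10 and KRT20 had an r of 0.47 (permutation p = 0.00872, or 0.0488 after adjustment) and a rho of 0.67 (permutation p = 0.00013, or 0.00121 after adjustment), with 0.44 without the 2 most distant tumors, which did not pass; the pair passed in 2 of the 7 settings tried. Both are close in gene order, at positions 58 and 56.

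None of the other 23 pairs passed. The lowest r was -0.36 between KRT10 and KRT17 (permutation p = 0.0544, or 0.165 after adjustment; rho -0.35, permutation p = 0.0619, or 0.186 after adjustment), so no negative relation between 2 of these keratins passed the correction. KRT14 and KRT20, the markers of basal and luminal differentiation, had an r of -0.15 (permutation p = 0.429, or 0.632 after adjustment) and a rho of -0.17 (permutation p = 0.368, or 0.639 after adjustment), so no opposite movement of the 2 was detectable over these tumors. In 9 tumors KRT20 was tied at its lowest value, which limits what can be detected.

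**Figure D4:**
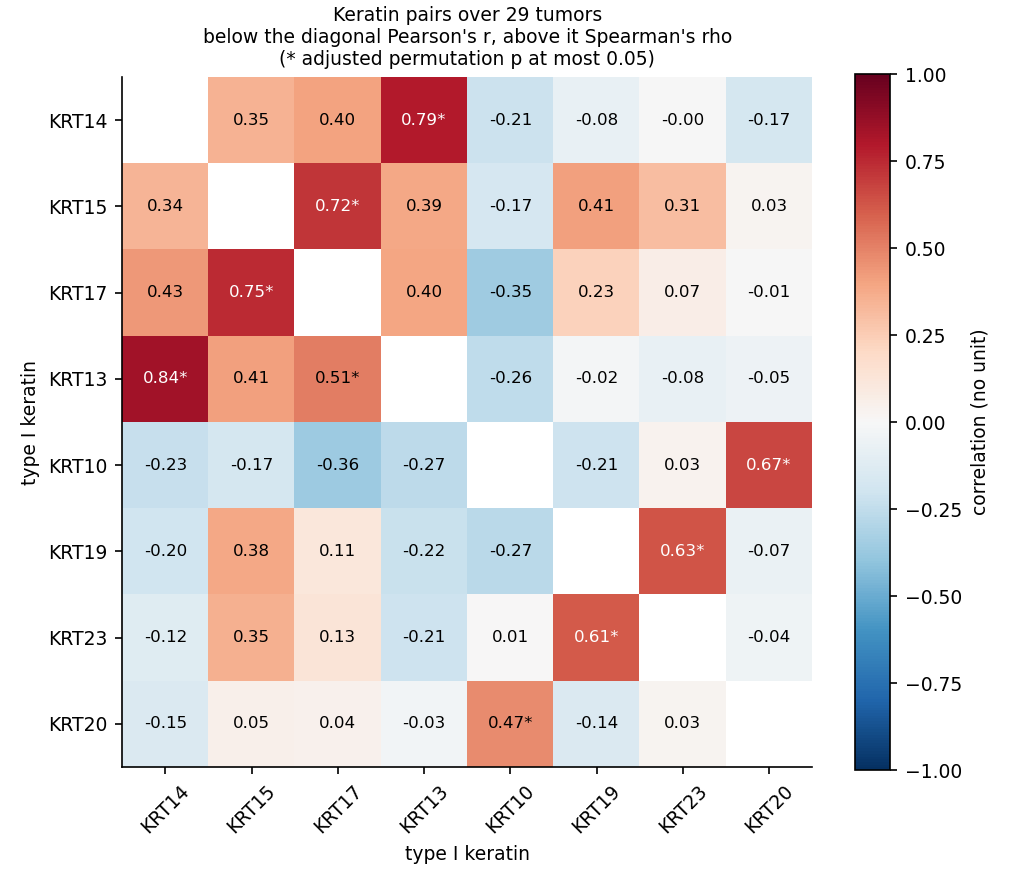
Correlations over 29 tumors between the 8 type I keratins named on both axes, with Pearson's r below the diagonal and Spearman's rho above it on a color scale from -1 to 1; an asterisk marks an adjusted permutation p of at most 0.05. The pairs of KRT13 with KRT14 (0.84) and of KRT15 with KRT17 (0.75) are the strongest by r, and 5 cells below the diagonal carry an asterisk.

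Each keratin was then related over the tumors to scores of 6 gene lists that hold no keratin, 48 relations in all, of which 7 passed by Pearson's r. KRT13, KRT14, KRT15 and KRT17 followed the score of squamous differentiation, 12 genes of desmosomes, the cornified envelope and other products of maturing squamous cells. The methods describe no tumor of the series as squamous by histology. KRT13 had an r of 0.76 (permutation p = 1e-05, or 0.00048 after adjustment) and a rho of 0.65 (permutation p = 0.00024, or 0.0115 after adjustment), and 0.65 without the 2 most distant tumors. KRT15 had an r of 0.65 (permutation p = 0.00014, or 0.00336 after adjustment) and a rho of 0.62 (permutation p = 0.00048, or 0.0115 after adjustment), and 0.55 without those tumors.

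For KRT14 the r with the squamous score was 0.62 (permutation p = 0.0005, or 0.00664 after adjustment) and rho 0.53 (permutation p = 0.0031, or 0.0213 after adjustment). It was 0.45 without the 2 most distant tumors and 0.45 without tumor Da6, and passed in neither case. KRT17 had an r of 0.60 (permutation p = 0.00082, or 0.00664 after adjustment) and a rho of 0.58 (permutation p = 0.00128, or 0.0191 after adjustment), and 0.46 without the 2 tumors, not past the correction. For KRT10, KRT19, KRT20 and KRT23 the r was -0.12, 0.10, 0.26 and 0.03, and none passed (permutation, adjusted p from 0.399 to 0.933).

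The basal layer score, 6 genes of the hemidesmosome, laminin and basal cell surface, was related to KRT14 with an r of 0.62 (permutation p = 0.0007, or 0.00664 after adjustment), a rho of 0.56 (permutation p = 0.00199, or 0.0191 after adjustment) and 0.61 without the 2 most distant tumors. By rho, KRT13 (0.49, permutation p = 0.00783, or 0.047 after adjustment) and KRT17 (0.55, permutation p = 0.00277, or 0.0213 after adjustment) also passed. By r they had 0.47 and 0.46 (permutation p = 0.0116 and 0.0126, or 0.0638 after adjustment for both), which did not pass, but without the 2 most distant tumors r was 0.53 and 0.60 (permutation, adjusted p = 0.0228 and 0.0116), which did. KRT15, a basal keratin by background, had an r of 0.38 (permutation p = 0.0459, or 0.169 after adjustment) and a rho of 0.26 (permutation p = 0.171, or 0.432 after adjustment) with it.

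The luminal score, 11 uroplakins, urothelial transcription factors and ERBB receptors, was negatively related to KRT13 and KRT14 by Pearson's r and not by Spearman's rho. KRT13 had an r of -0.62 (permutation p = 0.00083, or 0.00664 after adjustment) and a rho of -0.34 (permutation p = 0.068, or 0.251 after adjustment). KRT14 had an r of -0.57 (permutation p = 0.00168, or 0.0115 after adjustment) and a rho of -0.37 (permutation p = 0.05, or 0.205 after adjustment). Without the 2 most distant tumors these were -0.50 and -0.56, and without tumor Da6 -0.39 and -0.34, which did not pass. KRT20, the umbrella cell keratin, had an r of 0.05 with the luminal score (permutation p = 0.774, or 0.931 after adjustment) and a rho of 0.08 (permutation p = 0.693, or 0.853 after adjustment), and KRT19 had an r of 0.30 (permutation p = 0.113, or 0.339 after adjustment) and a rho of 0.12 (permutation p = 0.528, or 0.768 after adjustment). The relation of KRT20 is limited by the 9 tumors tied at its lowest value.

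No keratin passed with the general epithelium, proliferation or interferon score by Pearson's r. By rho KRT10 was negatively related to proliferation (-0.57, permutation p = 0.00173, or 0.0191 after adjustment), with an r of -0.45 (permutation p = 0.0133, or 0.0638 after adjustment) and -0.61 without the 2 most distant tumors, which passed. Of 40 relations with the marker scores of smooth muscle, fibroblasts, immune cells and endothelium and with the olfactory share, 0 passed by Pearson's r or Spearman's rho, and 5 had an unadjusted permutation p under 0.05 by r. These were KRT13 with immune and with endothelial markers (0.47 and 0.48), KRT14 and KRT17 with endothelial markers (0.46 and 0.45), and KRT20 with the olfactory share (0.60).

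**Figure D5:**
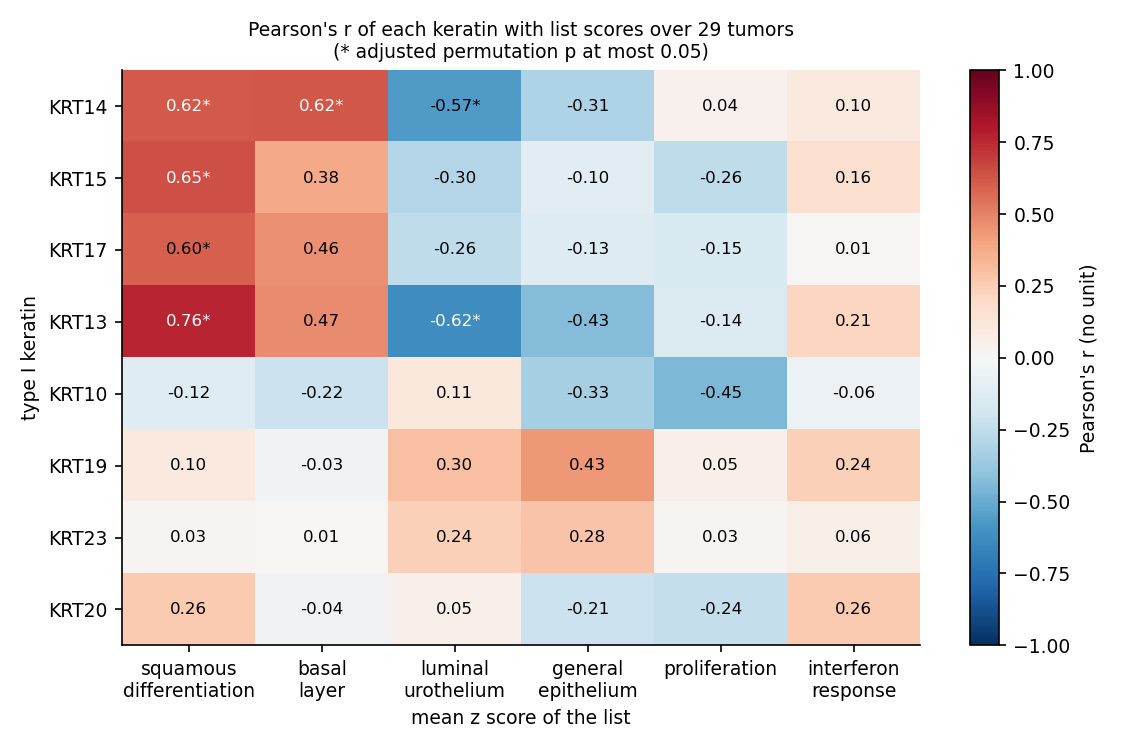
Pearson's r over 29 tumors of each of the 8 type I keratins (vertical axis) with the mean z score of 6 gene lists without keratins (horizontal axis), on a color scale from -1 to 1; an asterisk marks an adjusted permutation p of at most 0.05. The squamous column holds 4 of the 7 asterisks, with 0.76 for KRT13 as its highest value.

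Among the lists, the genes of squamous differentiation moved both ways between normals and tumors. Of 12 tested, 3 were called higher and 2 lower, beside 10.7% higher and 45.8% lower over all genes tested, with a median log2 fold change of 0.29. PKP1, a desmosome protein (1.88), and S100A8, an alarmin (1.96), rose, and KLK10, a protease (-4.96), and PI3, the protease inhibitor elafin (-4.30), fell. Of 6 basal layer genes 2 rose and 0 fell, beside the same 10.7% and 45.8% over all genes, with a list median of 0.40, and LAMB3, a laminin chain, rose most (2.38).

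Of 11 luminal genes 8 rose and 0 fell, again beside 10.7% and 45.8% of all genes, with a median of 1.27, led by the transcription factor ELF3 (2.27) and the receptor ERBB3 (2.24). The 11 general epithelial genes had a median of 1.56. CLDN7, a tight junction protein (2.37), and RAB25, a trafficking GTPase (2.18), rose most. PRSS8 stood at its lowest value in all 29 tumors and was tested only because of the 4 normals, so that its difference (-5.92) is measured from that lowest value and its call lower follows from the filter. ACTG2 (-7.05) and CNN1 (-7.01), contractile proteins, fell most among the smooth muscle genes.

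For each keratin, the genes whose pattern over the tumors was most like it were taken from 10955 genes outside the set, by Pearson's r over 29 tumors and as a description with no test. KRT14 was most like DSG3, the desmoglein of stratified epithelium and a gene of the squamous list (0.80), SERPINB2, a plasminogen activator inhibitor (0.76), and ESM1, a secreted proteoglycan (0.75). KRT13 shared SERPINB2 (0.80), with ARHGAP25 (0.74) and PHYHIP (0.73), but for SERPINB2 r was 0.58 without the 2 most distant tumors. The most opposite were MYCL (-0.74) and RBBP8NL (-0.69) for KRT14, and CNTD2 (-0.76) and CSNK1D (-0.75) for KRT13. Without the 2 most distant tumors r was -0.36 for RBBP8NL with KRT14 and -0.37 for CNTD2 with KRT13, and for PHYHIP with KRT13 it was 0.47.

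KRT15 was most like BAALC (0.87), the adhesion molecule NRCAM (0.83) and ANKK1 (0.80), and these 3 values were 0.80, 0.77 and 0.70 without the 2 most distant tumors. KRT17 was most like BNC1, basonuclin of basal keratinocytes (0.71), TCF23 (0.68) and NGFR, the low-affinity nerve growth factor receptor (0.68). The most opposite were EPM2AIP1 (-0.74) and ABCC4 (-0.71) for KRT15, and DMXL1 (-0.70) and ZNF879 (-0.70) for KRT17.

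KRT10 was most like KRT12 (0.83), its neighbor in gene order, with HYKK (0.71) and the dynein DNAH3 (0.71), and was most opposite to KCMF1 (-0.80) and DRG1 (-0.72). KRT19 was most like FBP2 (0.73), PLD2 (0.73) and GRPEL1 (0.71), and most opposite to SUCNR1 (-0.75). KRT23 was most like BORCS8 (0.72), the chloride channel protein CLIC1 (0.71) and Oasl2 (0.70), and most opposite to TUBB4A (-0.74) and TRRAP (-0.72).

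KRT20 was most like CLCA1, a protein of mucus-secreting cells (0.69), FOXN4 (0.66) and TMEM182 (0.66), and most opposite to AKIRIN2 (-0.56) and THOC7 (-0.53). Its r was 0.40 with CLCA1 and -0.37 with AKIRIN2 without the 2 most distant tumors. Its highest r was lower than that of each of the other 7 keratins. KRT20 alone was tied at a lowest value, in 9 tumors, and how far this limits its r was not tested.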

How the data were processed

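RNA from 29 tumors and 4 normal samples was depleted of ribosomal RNA and sequenced as paired-end reads. The authors aligned the reads to CanFam 3.1 with COBWeb in Strand NGS 3.1, normalized the genes in 2 ways, TMM and DESeq, and deposited the 2 tables as log2 values centred on each gene's median. The values are not counts and the depth of each sample is not known, so no count test was run and no pseudocount was added. The columns were matched to the samples by name, and the copy of each table read here stops partway through a line. That line was left out, genes after it were not analysed here, and all counts and adjustments over genes cover only the genes read. The 8 keratins were matched by symbol, 1123 genes without a symbol were named through their Entrez ID, and genes above a shared lowest value in at least 4 samples were tested (24471 of 25096). All 8 keratins passed this filter. No 2 samples held identical values (highest r between samples 0.942).

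The group comparison used limma 3.58.1 (R 4.3.3), with lmFit and a trended eBayes. Correlations over tumors used two-sided permutation tests with 100000 resamples in Python 3.11.15 with numpy 2.4.6, and Benjamini-Hochberg adjustment over the 28 keratin pairs, 48 relations with list scores or 40 with markers. A list score is the mean z score of its genes over the tumors. The tumor and normal comparison was tested on simulated data of 24471 genes: of 200 given a log2 change of 3 it called 178, and it also called 9 without a change. The keratins and lists were chosen with earlier results of these data known. Genes most like a keratin were the 3 with the highest and 2 with the lowest r among genes with a symbol that lay above the lowest value in at least 15 tumors, and list genes are the 2 largest rises and falls among calls, given for the lists nearest to the keratins. Some genes that these rules pick are not reported here. For the other lists, genes called higher and lower were 5 and 0 of 6 (proliferation), 3 and 1 of 5 (interferon response), 1 and 7 of 9 (fibroblast), 1 and 1 of 8 (immune) and 0 and 0 of 5 (endothelium), beside 10.7% and 45.8% of all genes tested. The alternatives were other filters, scalings and weights, each normal left out, no fold threshold, covariates, Spearman's rho and tumors left out.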

Additional observations from a re-analysis of the deposited data

Results flagged for a closer look

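In the 4 normals, 2 of the 8 keratins had 1 sample far from the other 3 by Dixon's test, which by chance flags about 1 in 20 groups. KRT13 was at -0.97 in normal A, against 1.27 to 1.48 in the others, a gap of 0.912 of the whole range. KRT19 was at -1.79 in normal D, against -0.64 to -0.50, a gap of 0.892 of the range, both above Dixon's critical value for 4 samples. Without normal A the log2 fold change of KRT13 was -1.29 (limma adjusted p = 0.385), and without normal D that of KRT19 was 0.79 (limma adjusted p = 0.0502).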

How the results depend on the processing

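The number of keratins called higher in tumors (1) was 0 in the DESeq-normalized table, with the olfactory receptor share as covariate and against the general epithelium mean, and 0 to 1 with each normal or tumor Da6 left out. The number called lower (1) was 2 in the DESeq-normalized table and by adjusted p alone, 3 against the general epithelium mean, 0 with the olfactory receptor share as covariate, and 1 with each normal or tumor Da6 left out. The pairs passing the correction (5) were 3 and the score relations (7) were 4 without tumor Da6, chosen after seeing the data; in the other settings they ranged from 4 to 6 and from 7 to 8. The keratins that differed relative to general epithelium (3) were 2 to 3 with each normal left out and 4 without PRSS8, a choice made after seeing the data.

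The sign turned for KRT13 (0.31) and KRT20 (0.52) with the olfactory receptor share as covariate and for KRT17 against the general epithelium mean (-0.40). Relative to general epithelium it turned for KRT14 (-0.29), KRT19 (-0.67) and KRT23 (-0.61) without PRSS8, which moves all keratins down alike; it also turned for KRT17 without normal D (0.17) and for KRT23 without normal B (-0.044); with each normal left out KRT14 ran from 0.18 to 0.80, KRT17 from -0.64 to 0.17 and KRT23 from -0.044 to 0.25. The cause of the other turns was not tested. Of 244 alternatives for single values, 211 kept direction and side of the threshold, 21 kept the direction and no longer passed, 4 kept it and now did, and 8 turned sign; of these 8, KRT20 with the covariate lost its call and KRT19 without PRSS8 gained one. The pairs of type I with type II keratins were not run, because no type II keratin is among the genes read. Normals and tumors came from different dogs, so there were no pairs to analyse. The depth of each sample is not known, and what it limits was not tested.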
